A study of Mus musculus with 4 samples.

Results

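The cytochrome P450 genes of the mouse were examined for peaks in chromatin immunoprecipitation with sequencing (ChIP-seq) of HA-tagged Fbxl10, the histone demethylase also called Kdm2b. The members were chosen by symbol (Cyp followed by a digit) among the protein-coding genes of RefSeq assembly GRCm38, which has the coordinates of mm10. They numbered 99 of 21887 nuclear protein-coding genes. The values that describe them, the positions and scores of the peaks, had been seen before these genes were set apart, so all counts are descriptions and no test was made of them.

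The induced group was mouse embryonic fibroblasts (MEFs) labelled as overexpressing HA-tagged Fbxl10 and given doxycycline at 1 µg/ml for 48 hours. The non-induced group carried the same genotype label without the doxycycline label, so both groups share the transgene. For each, the labels give 7 µg of chromatin and 5 µg of an HA antibody, and 1 peak list per group was analysed here, with 5497 induced and 10532 non-induced peaks. With 1 list per group there was no replicate check, and the protocol's statement of 3 independent samples could not be tied to the lists. Each peak has a score written by the authors' caller, whose minimum was 50 and median 66.6 for induced peaks, against 50.01 and 60.2 for non-induced peaks. Whether scores of the lists share a scale was not tested. Read depth is unknown, the labels do not name the promoter that drives the transgene, and a peak list holds no expression by which the fibroblast identity could be checked. Intervals are exact 95% binomial (Clopper-Pearson) intervals that cover counting error only.

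Cytochrome P450 enzymes are haem proteins that insert an oxygen atom into their substrates, using electrons passed on by a reductase or by ferredoxin. Families 1 to 3 are best known for oxidising drugs, pollutants and other foreign compounds in liver, gut and lung, and family 4 for oxidising fatty acids. The remaining families mostly make or break down defined compounds of the body, namely cholesterol, bile acids, steroid hormones, vitamin D and retinoic acid. Many genes of families 2, 3 and 4 lie side by side in tandem arrays of near-copies, whereas those of the synthetic families mostly stand alone. Fbxl10 binds DNA through a CXXC zinc finger that recognises CG dinucleotides without methylation, which are dense at many promoters.

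Few Cyp genes had a peak. An induced peak lay within 1 kb of either end of 2 of the 99 genes, Cyp1b1 and Cyp46a1 (2.02%, interval 0.246 to 7.11), where 13.4% of all protein-coding genes had one. No Cyp gene had a non-induced peak there, which allows a share of up to 3.03% (the limit for a 0 is set at 3 counts, here 3 of 99 genes), against 1.59% of all protein-coding genes. Within 5 kb of an end, 3 genes had an induced peak (3.03%, 0.629 to 8.60), against 18.4% of all genes, and Cyp26c1 was the gene added. None had a non-induced peak within 5 kb, with the same upper limit, against 5.36% of all genes. Within 10 kb the counts were 9 genes in the induced list (9.09%, 4.24 to 16.6), against 21.9% of all genes, and 2 in the non-induced list (2.02%, 0.246 to 7.11), against 9.01% of all genes. The family was taken up with its peaks already known, so the gap between these shares and those of all genes was not tested and is no evidence that P450 genes differ.

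Peaks inside the genes were somewhat more frequent. An induced peak overlapped 5 Cyp genes (5.05%, 1.66 to 11.4), against 16.5% of all genes, and a non-induced peak overlapped 6 (6.06%, 2.26 to 12.7), against 10.2%. Counting peaks inside a gene or within 5 kb of it together gave 6 genes in the induced list (6.06%, 2.26 to 12.7), against 21.4% of all genes. The non-induced list gave 6 genes too (6.06%, 2.26 to 12.7), against 12.7% of all genes. The 6 induced genes were Cyp1b1, Cyp46a1, Cyp26b1, Cyp26c1, Cyp4b1 and Cyp39a1. The 6 non-induced genes were Cyp2c39, Cyp2c67, Cyp2j6, Cyp3a25, Cyp4v3 and Cyp7b1. The groups shared 0 genes, and 87 genes had no peak by this rule in either list. The shares of all genes with a peak in both lists or in neither were not computed, so these 2 counts have no background beside them. With 6 genes in each list, sharing 0 genes is no sign that the lists mark separate sets of Cyp genes.

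**Figure D1:**
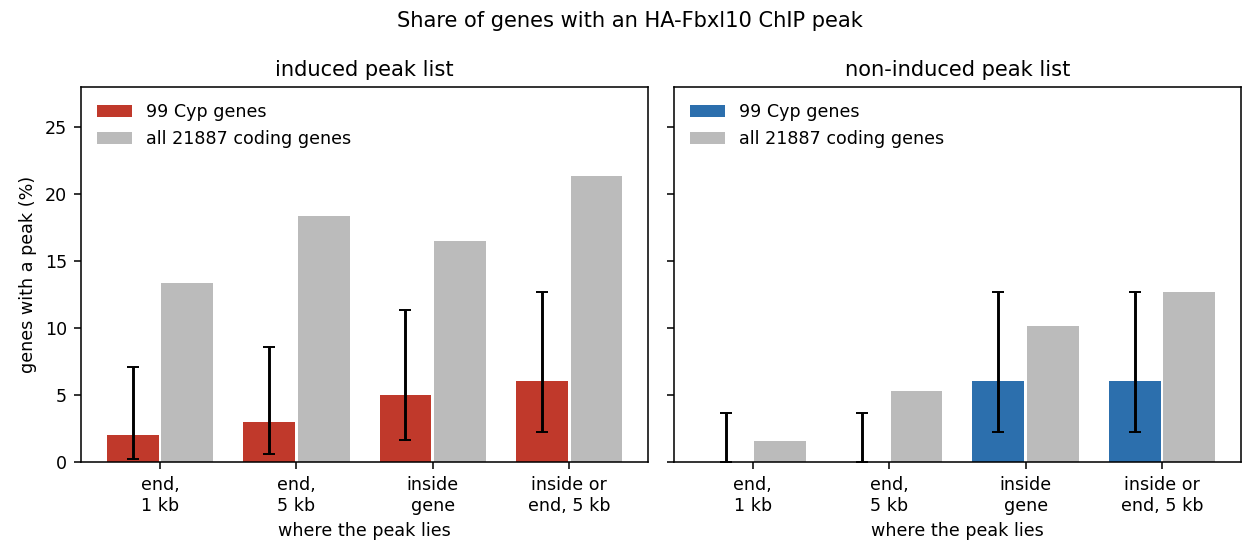
Share of genes with a peak (y axis, percent) by where the peak lies (x axis) in the induced (left) and non-induced (right) list, for the 99 Cyp genes (coloured bars, with exact 95% intervals) and all 21887 protein-coding genes (grey bars). In the induced list the coloured bars run from 2.02% to 6.06% and the grey bars from 13.4% to 21.4%; in the non-induced list the Cyp genes are at 0 at gene ends and at 6.06% inside genes.

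Cyp1b1, which oxidises polycyclic hydrocarbons and estrogens and is known from cultured mouse embryo fibroblasts, had the highest-scoring peak of the 99 genes. Its gene lies on chromosome 17 (chr17:79706940-79715061, mm10, minus strand, gene 13078). The first induced peak was 2055 bp wide (chr17:79713034-79715088) with a score of 216.51, rank 103 of 5497, so that 1.87% of the induced peaks scored as high or higher. It covered the gene start and the first part of the gene, with its midpoint 1000 bp inside. A second induced peak of 697 bp and score 70.06 lay 2196 bp from the start (chr17:79712169-79712865). Cyp1b1 had no non-induced peak within 5 kb, and the nearest one was 11.2 kb from the gene. No other protein-coding gene had an end within 1 kb of either peak. The other family 1 genes, Cyp1a1 and Cyp1a2, which metabolise polycyclic and aromatic compounds in liver and lie side by side on chromosome 9, had no peak in either list. Outside that pair the closest induced peak was at 171 kb and the closest non-induced peak at 288 kb.

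Cyp46a1, the cholesterol 24-hydroxylase through which neurons dispose of cholesterol, had an induced peak just before its start. The gene lies on chromosome 12 (chr12:108334268-108362234, plus strand, gene 13116). The peak was 775 bp wide (chr12:108333417-108334191), and its edge was 77 bp from the lower end of the gene and 125 bp from the start used in the promoter table. Its score of 62.12 was rank 3191 of 5497, which is below the median of the list. The nearest non-induced peak to it was 795 kb away. Just outside the limit of 1 kb stood Cyp26c1, with an induced peak 2.22 kb from its end, and just outside the limit of 5 kb stood Cyp26b1, with one at 5.90 kb.

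The promoter letters of both genes are shown with those of 3 genes of the largest tandem arrays that had no peak in either list. They are the 250 bases before the annotated start in RefSeq (GRCm38.p6), 5′ to 3′ on the strand of the gene, with CG dinucleotides in capitals because these are the letters that the CXXC finger recognises. Positions are chr17:79715062-79715311 (minus) for Cyp1b1, chr12:108334066-108334315 (plus) for Cyp46a1, chr4:115241794-115242043 (plus) for Cyp4a29, chr7:26686431-26686680 (minus) for Cyp2b23 and chr19:39286835-39287084 (plus) for Cyp2c29.
Cyp1b1: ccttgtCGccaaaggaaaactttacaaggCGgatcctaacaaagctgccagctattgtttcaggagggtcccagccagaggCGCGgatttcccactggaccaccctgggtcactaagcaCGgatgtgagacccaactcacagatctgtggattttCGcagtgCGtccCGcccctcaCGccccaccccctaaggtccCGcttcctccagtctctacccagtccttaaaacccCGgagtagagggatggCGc
Cyp46a1: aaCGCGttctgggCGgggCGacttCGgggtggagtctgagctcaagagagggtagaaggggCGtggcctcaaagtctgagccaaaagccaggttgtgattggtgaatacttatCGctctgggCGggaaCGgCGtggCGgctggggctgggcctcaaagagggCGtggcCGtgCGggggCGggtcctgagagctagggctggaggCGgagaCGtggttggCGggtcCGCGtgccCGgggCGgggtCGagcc
Cyp4a29: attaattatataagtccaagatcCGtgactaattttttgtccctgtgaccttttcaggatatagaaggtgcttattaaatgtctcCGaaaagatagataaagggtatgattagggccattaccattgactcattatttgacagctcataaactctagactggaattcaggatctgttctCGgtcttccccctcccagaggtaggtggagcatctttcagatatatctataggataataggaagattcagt
Cyp2b23: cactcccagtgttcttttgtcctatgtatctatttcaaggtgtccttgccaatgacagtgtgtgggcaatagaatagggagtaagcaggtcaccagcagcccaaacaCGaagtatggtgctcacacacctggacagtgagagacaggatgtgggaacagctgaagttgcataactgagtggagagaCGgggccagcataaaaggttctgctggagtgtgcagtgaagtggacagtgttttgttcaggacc
Cyp2c29: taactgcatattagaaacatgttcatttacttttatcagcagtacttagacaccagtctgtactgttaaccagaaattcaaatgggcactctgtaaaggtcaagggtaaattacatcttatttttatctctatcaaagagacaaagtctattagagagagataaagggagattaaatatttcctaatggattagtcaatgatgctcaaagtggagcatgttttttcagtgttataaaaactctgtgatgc

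The Cyp46a1 stretch held 23 CG dinucleotides, more than 83.3% of the 17492 protein-coding promoters in the table (the first listed per gene), and the Cyp1b1 stretch 12, more than 54.9%. The Cyp4a29 stretch held 3, the Cyp2b23 stretch 2 and the Cyp2c29 stretch 0, against a median of 10 over all promoters (quartiles 3 and 19). The stretches of Cyp26b1 (7), Cyp26c1 (3) and Cyp4b1 (3), genes with an induced peak inside, were below that median. Their nearest induced peaks lay outside these stretches, 5806, 4689 and 10646 bp from the starts used. The counts therefore do not describe the letters under those peaks, which were not read. Cyp26a1 held 20, more than 76.9% of promoters, with no peak within 5 kb. Whether CG counts go with peaks was not tested. The 5 printed stretches are examples and not a comparison of genes with and without a peak. The induced peak covered 126 of the 250 bases at Cyp46a1 and 27 at Cyp1b1. A promoter sequence was at hand for 77 of the 99 Cyp genes (77.8%) and for 79.9% of all protein-coding genes. With the other Cyp promoters unread, a comparison of CG content over the family is void and was not made. The core letters GCGTG, or CACGC on the other strand, which belong to the response element of the aryl hydrocarbon receptor, occurred 1 time in the Cyp1b1 stretch (as CACGC) and 4 times in that of Cyp46a1 (as GCGTG). They occurred 1 time before Cyp1a1 (as GCGTG). Of all promoters 33.6% held at least 1 and 11.3% at least 2. These letters contain CG themselves, so the counts overlap those of CG.

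Among the P450 enzymes that inactivate retinoic acid, Cyp26b1 and Cyp26c1 carried induced peaks away from their starts. Of the 6 enzymes of vitamin D and retinoic acid 2 had an induced peak inside or within 5 kb (33.3%, 4.33 to 77.7), against 21.4% of all genes. A non-induced peak was found by this rule at 0 of the 6, against 12.7% of all genes. Cyp26b1, which clears retinoic acid in the embryonic limb and gonad, lies on chromosome 6 (chr6:84571414-84593908, minus strand, gene 232174) and had 2 induced peaks inside it. That nearer to the start was 1788 bp wide with a score of 110.52 (chr6:84586217-84588004), 5904 bp into the gene. The farther one was 1087 bp wide with a score of 147.09 (chr6:84583916-84585002), 8906 bp into the gene, at rank 398. Cyp26c1 and Cyp26a1 lie side by side on chromosome 19, and 1 induced peak with a score of 71.15 (chr19:37690369-37691102) fell inside Cyp26c1. It was 2218 bp from the far end of Cyp26c1 and 6636 bp before the start of Cyp26a1, which had no peak within 5 kb. None of the 3 Cyp26 genes had a non-induced peak by the same rule, and the distances from their ends to the nearest one were 330 kb for Cyp26b1, 330 kb for Cyp26c1 and 321 kb for Cyp26a1. The enzymes of vitamin D had no peak within 5 kb: Cyp27b1 and Cyp2r1, which activate the vitamin, and Cyp24a1, which breaks it down. The induced peak nearest to Cyp27b1 was 6.49 kb before its start with a score of 168.77, and it lay within 1 kb of an end of the methyltransferase genes Eef1akmt3 and Mettl1. A second one, 8.70 kb beyond its end with a score of 70.92, was at the cell cycle kinase gene Cdk4.

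Among the 7 enzymes of cholesterol and bile acid metabolism, 2 had an induced peak inside or within 5 kb, where 21.4% of all genes had one, and 1 a non-induced peak, where 12.7% did. With 7 genes these counts are near the background. Beside Cyp46a1 this was Cyp39a1, an oxysterol hydroxylase on chromosome 17, with an induced peak of low score (53.65, chr17:43675232-43675843) inside the gene, 7.86 kb from the nearer end. Cyp7b1, the other oxysterol hydroxylase, had a non-induced peak inside the gene (57.73, chr3:18115567-18116208), 43.6 kb from the nearer end. Strand was not at hand for Cyp39a1 and Cyp7b1. Cyp51, the lanosterol demethylase of cholesterol synthesis, had no peak by the rule, with the nearest induced peak 25.9 kb and the nearest non-induced peak 322 kb from its ends. Cyp7a1, the rate-limiting enzyme of bile acid synthesis, Cyp8b1 and Cyp27a1 had none either, with the nearest induced peaks at 72.1 kb, 56.1 kb and 32.0 kb. The 6 enzymes of steroid hormone synthesis, Cyp11a1, Cyp11b1, Cyp11b2, Cyp17a1, Cyp19a1 and Cyp21a1, had no peak inside or within 5 kb in either list. With 6 genes the limit set for a 0 allows a share of up to 50% in each list. This covers the 21.4% and 12.7% of all genes, so these counts do not set the steroid hormone group apart. Among these enzymes the closest induced peak was 87.8 kb from Cyp17a1 and 497 kb from Cyp19a1, the aromatase. For the other 4 it lay between these distances.

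The enzymes of foreign compounds and of fatty acids had 1 gene each with an induced peak inside or within 5 kb. Of 51 genes of the foreign compound group this was Cyp1b1 (1.96%, 0.0496 to 10.4), against 21.4% of all genes, while 3 had a non-induced peak, against 12.7% of all genes, and 47 had neither. Of 28 genes of the fatty acid group 1 had an induced peak (3.57%, 0.0904 to 18.3) and 2 a non-induced peak, against the same 21.4% and 12.7% of all genes, and 25 had neither. For the 47 and the 25 genes with neither, the share of all genes was not computed. The induced one of the fatty acid group was Cyp4b1, at the edge of the Cyp4a array on chromosome 4, with a peak 478 bp wide and of score 51.54 inside the gene (chr4:115636598-115637075), 10.6 kb from the nearer end. Of the induced list 92.5% scored as high or higher.

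**Figure D2:**
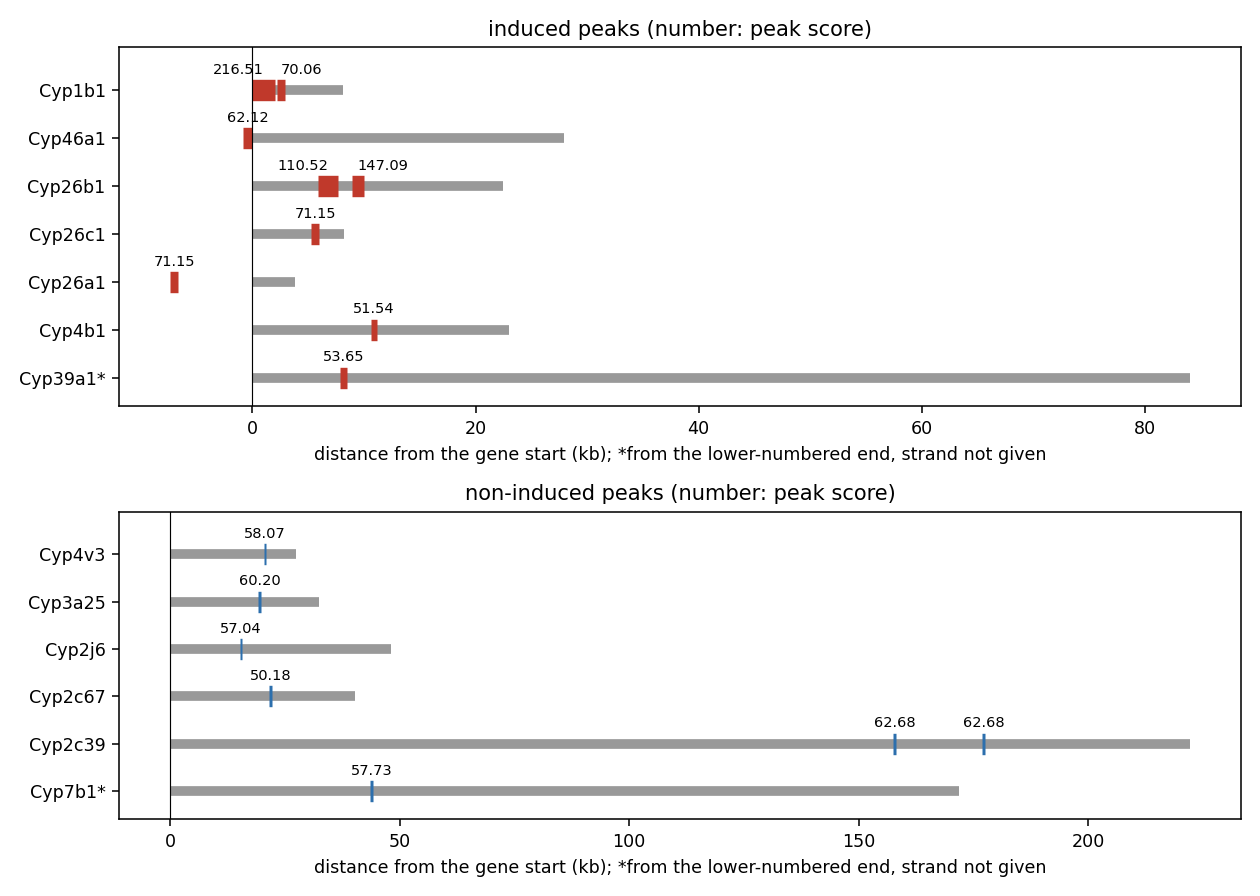
Peaks (coloured blocks, with their scores) along genes (grey bars) in kb from the gene start, drawn in the direction of transcription except for Cyp39a1 and Cyp7b1 (asterisks), which have no strand at hand and are drawn from the end with the lower coordinate, for 7 genes with an induced peak inside or within 10 kb (top; 3 further genes with one within 10 kb are not drawn) and the 6 genes with a non-induced peak inside (bottom). The higher-scoring induced block of Cyp1b1 and that of Cyp46a1 sit at the start, and the other Cyp1b1 block 2196 bp from it. The blocks of the Cyp26 genes lie 5 kb or more from the drawn start (4689 bp for Cyp26c1 from the start used for its promoter). No non-induced block is within 5 kb of an end.

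The 7 non-induced peaks at Cyp genes all lay inside the genes as annotated, 6.44 kb or more from the ends. In the Cyp2c array, which encodes liver enzymes that oxidise drugs and arachidonic acid, Cyp2c39 held 2 of them (chr19:39504923-39505531 and chr19:39524286-39524894). They had the same width of 609 bp and the same score of 62.68, and lay 19.4 kb apart. The annotated span of Cyp2c39 (chr19:39347346-39569568) also contains the whole of Cyp2c38 (chr19:39389556-39463103). That both peaks count as inside Cyp2c39 rests on this span. Cyp2c67 held 1 with a score of 50.18 (chr19:39626934-39627528). Cyp2j6, of the arachidonic acid epoxygenases, had a score of 57.04 (chr4:96548592-96549206). Cyp3a25, of the family that oxidises steroids and many drugs, had a score of 60.20 (chr5:145989944-145990534). Cyp4v3, a fatty acid hydroxylase, had a score of 58.07 (chr8:45312244-45312850), 6.44 kb from the nearer end. Reads from near-identical copies within these arrays can be placed at more than 1 site, so the position of a peak among copies is uncertain. The labels do not say how the authors treated such reads.

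The induced peaks of Cyp genes spanned a wider range of scores than the non-induced ones. The 8 induced peaks had scores of 51.54 to 216.51 with a median of 70.6, and 3 of them, at Cyp1b1 and Cyp26b1, reached 100, a score reached by 21.2% of all induced peaks. The 7 non-induced peaks had scores of 50.18 to 62.68 with a median of 58.1, and 0 reached 100, against 3.59% of all non-induced peaks. The whole lists differed in the same direction, with median scores of 66.6 and 60.2, so higher induced scores are no trait of the Cyp genes. Whether the scores share a scale was not tested. Induced peaks were 478 to 2055 bp wide and non-induced peaks 591 to 642 bp. The median widths of the whole lists were 758 bp for induced and 586 bp for non-induced peaks. No induced peak of a Cyp gene overlapped a non-induced one. The nearest peak of the other list was 16.4 to 795 kb away, and for the non-induced peaks it was 23 to 686 kb away. Overlap was rare over the whole lists too: 185 of 5497 induced and 187 of 10532 non-induced peaks overlapped a peak of the other list. The lack of overlap is therefore no trait of the Cyp genes.

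The family falls into genes in tandem arrays and genes that stand alone. Cyp genes with no more than 100 kb between neighbours formed 18 tandem clusters that held 73 genes, and 26 genes stood alone. At gene ends within 1 kb, an induced peak marked 0 of 73 clustered genes (a limit of 3 counts of 73 allows up to 4.11%) and 2 of 26 lone genes (7.69%, 0.946 to 25.1), against 13.4% of all genes. Inside a gene or within 5 kb, 2 clustered genes (2.74%, 0.334 to 9.55) and 4 lone genes (15.4%, 4.36 to 34.9) had an induced peak, against 21.4% of all genes. By the same rule 4 clustered genes (5.48%, 1.51 to 13.4) and 2 lone genes (7.69%, 0.946 to 25.1) had a non-induced peak, against 12.7% of all genes. The shares of all genes lie within the intervals of the lone genes under these 3 counts. For the clustered genes they lie above the limit of 4.11% and the upper bound of 9.55% in the induced list. In the non-induced list they lie within the interval. The genes were taken up with their peaks known, so this is no evidence that clustered genes differ. The intervals overlap in each pair, and the difference between clustered and lone genes was not tested. Near-copies in 1 cluster are not independent of each other.

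The distance from the nearest gene end to the nearest induced peak had a median of 223 kb for the 73 clustered genes (2.22 to 683 kb) and 70.4 kb for the 26 lone genes (0 to 497 kb), against 89.9 kb for all protein-coding genes. For the nearest non-induced peak the medians were 180 kb (6.98 to 1716 kb) in clustered genes and 161 kb (6.44 to 767 kb) in lone genes, against 138 kb for all protein-coding genes. In the induced list the median of the lone genes was below that of all genes and the median of the clustered genes above it, and the ranges overlapped.

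**Figure D3:**
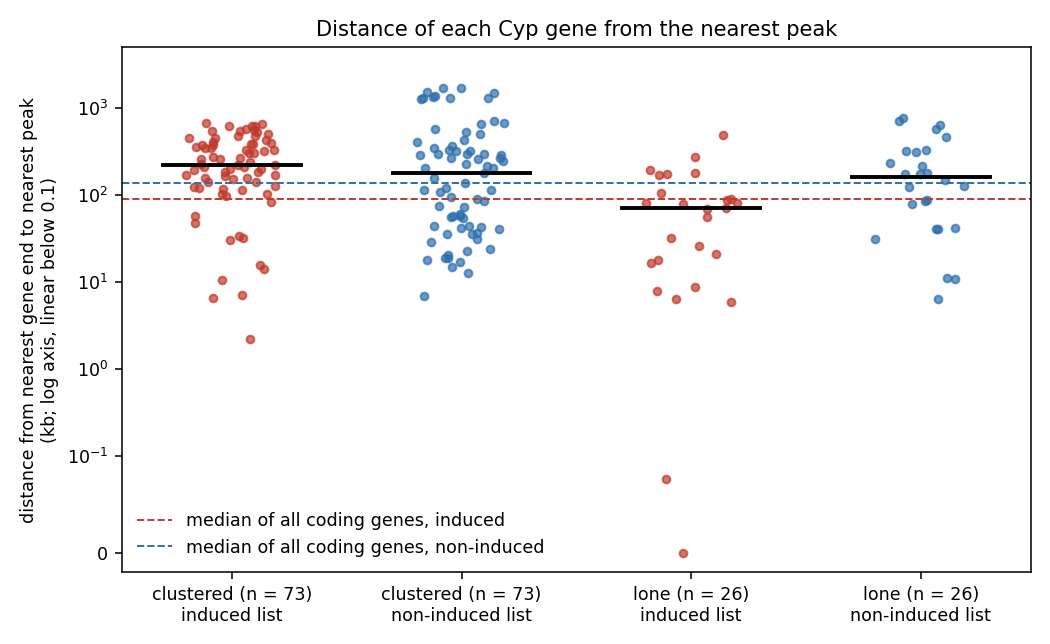
Distance in kb (y axis, log scale, linear below 0.1 kb) from the nearest end of each Cyp gene (points) to the nearest peak, for clustered and lone genes and both lists; black bars are medians and dashed lines the medians of all protein-coding genes. In the induced list the clustered genes centre on 223 kb and the lone genes on 70.4 kb, with Cyp46a1 and Cyp1b1 as the 2 points below 1 kb.

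Between the first and the last Cyp gene the clusters covered 4.02 Mb and held 2 induced and 10 non-induced peaks. This gave 0.497 induced peaks per Mb (exact Poisson interval 0.0602 to 1.80), against 2.24 per Mb over the annotated autosomes. Non-induced peaks stood at 2.48 per Mb (1.19 to 4.57), against 4.30 per Mb. The Cyp genes were taken up with their peaks known, so the gap to the autosomes was not tested in either list. It is no evidence that the clusters differ. Both induced peaks were inside Cyp genes, Cyp4b1 and Cyp26c1. Of the non-induced peaks 5 were inside Cyp genes and 5 between them, the strongest 6.98 kb from Cyp2b19 with a score of 89.0. An induced peak fell in 2 clusters and a non-induced peak in 5 others. The 11 clusters without a peak of either list included all those of Cyp2d, Cyp4f, Cyp1a and Cyp11b genes. Each of the 11 spanned only 21.3 to 254 kb, and how many clusters of such spans would hold no peak was not computed.

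**Figure D4:**
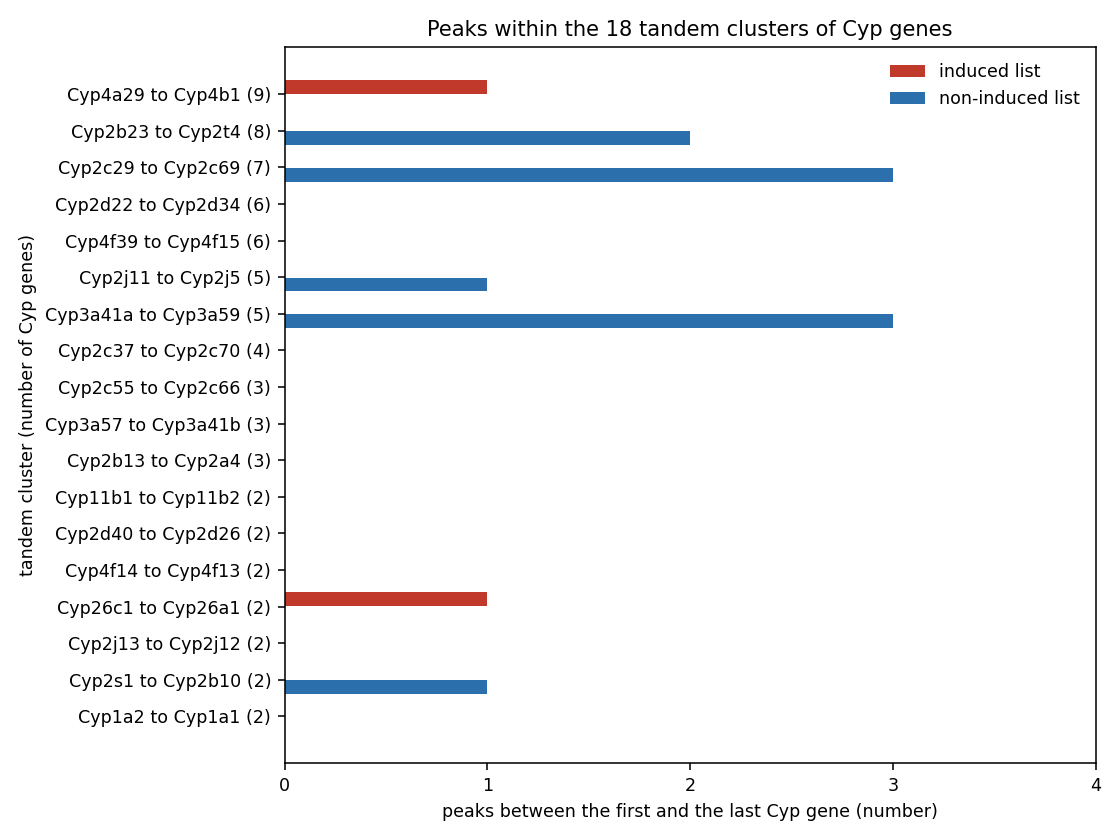
Number of peaks (x axis) between the first and the last Cyp gene of each of the 18 tandem clusters (rows, named by their first and last gene, with the number of Cyp genes) in the induced (upper bar of each row) and non-induced list (lower bar). Induced peaks appear in 2 rows with 1 each, and non-induced peaks in 5 rows with up to 3.

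Other genes stood close to the lone Cyp genes and seldom to the clustered ones. Within 100 kb a lone Cyp gene had a median of 4 other protein-coding genes (1 to 11) and a clustered one a median of 0 (0 to 8). Of the 64 other genes around clustered Cyp genes 8 had an induced peak at an end (12.5%, 5.55 to 23.2), close to the 13.4% of all genes. A non-induced peak was at an end of 1 of the 64 (1.56%, 0.0396 to 8.40), close to the 1.59% of all genes. Of the 115 around lone Cyp genes 15 had an induced peak (13.0%, 7.49 to 20.6) and 1 a non-induced peak (0.870%, 0.0220 to 4.75). The shares of all genes, 13.4% and 1.59%, lie within these intervals.

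The proteins that serve the P450 enzymes were covered by lists that were likewise drawn up with earlier results known. Of 12 redox partners 1 had an induced peak within 1 kb of an end, Fdx1, the ferredoxin of the mitochondrial P450 enzymes (score 50.47), and 4 had one within 5 kb. These are 8.33% (0.211 to 38.5), against 13.4% of all genes, and 33.3% (9.92 to 65.1), against 18.4%. The 3 added within 5 kb were the ferredoxin reductase gene Fdxr (54.8) and the cytochrome b5 reductase genes Cyb5r3 (94.78) and Cyb5r1 (79.0). Por, the reductase of the microsomal P450 enzymes, had none. None of the 12 had a non-induced peak within 5 kb or inside, against 5.36% and 10.2% of all genes. Of 11 genes of haem synthesis and breakdown 2 had an induced peak within 1 kb, Alad (141.17) and the ferrochelatase gene Fech (96.99), and 1 had a non-induced peak, the haem oxygenase gene Hmox2 (64.13). The shares were 18.2% (2.28 to 51.8), against 13.4% of all genes, and 9.09% (0.23 to 41.3), against 1.59%.

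Of 25 regulators of P450 genes 2 had an induced peak within 1 kb of an end, Srebf2, the transcription factor that drives cholesterol synthesis genes (110.62), and the oxysterol receptor gene Nr1h3 (79.12), and 0 had a non-induced peak there. The induced share was 8% (0.984 to 26), against 13.4% of all genes, and the non-induced share of all genes was 1.59%. Induced peaks inside the gene were found in 6 (24%, 9.36 to 45.1), near the 16.5% of all genes, among them Nr5a2, a regulator of bile acid synthesis (252.17), and the retinoic acid receptor genes Rara (111.9) and Rarb (60.87). Nr5a2 and Rarb also had a non-induced peak inside (50.78 and 60.88), which makes 8% of the list (0.984 to 26), against 10.2% of all genes. Ahr, which encodes the receptor that controls family 1, had no peak by either rule. Of 63 genes of conjugating enzymes (glutathione, glucuronosyl and sulfotransferases), which act on the products of P450 enzymes, 3 had an induced peak within 1 kb (4.76%, 0.993 to 13.3), against 13.4% of all genes, namely Gstcd (97.41), Gstz1 (51.68) and Sult2a6 (51.23). The same 3 were the genes with an induced peak within 5 kb and inside, against 18.4% and 16.5% of all genes. In the non-induced list 4 had one within 1 kb (6.35%, 1.76 to 15.5), against 1.59% of all genes, namely Sult3a2 (95.71), Gsta4 (70.2), Ugt2b5 (62.55) and Sult6b2 (53.92). Non-induced peaks lay within 5 kb of an end of 11 (17.5%, 9.05 to 29.1), against 5.36% of all genes, and inside 12 (19%, 10.2 to 30.9), against 10.2%. Many of these genes are near-copies side by side, so their counts are not independent, and the difference from all genes was not tested.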

How the data were processed

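ChIP-seq with an HA antibody was done on induced and non-induced MEFs, and 1 deposited peak list per group was used; the labelled input libraries have no list here. The titles gave the groups, and the marks W and W/O in them tied each list to its group. The submitters' processing notes name Bowtie2 and mm10. The authors called peaks with MACS, as the peak names show; its version and threshold, the control and any pooling are not stated in the labels or files. The deposited score of each peak is the authors' own value, with no formula given. It was used to rank, filter and describe peaks. Depth is unknown, since no file here holds counts of reads.

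Genes, coordinates and promoters came from RefSeq tables of GRCm38.p6; strand was taken from the promoter table. A gene end is either end of the gene, and a peak counted with an overlap of at least 1 bp. Clusters joined Cyp genes at most 100 kb apart. Members, gene lists and rules were chosen with earlier results of these data known. The text names every Cyp gene with a peak inside or within 5 kb, genes sharing those peaks, marked partner genes and the small synthetic families in full. No chance test was made. The interval functions were tested on simulated peaks, and bedtools 2.31.1 found the same number of genes with a peak at an end (difference 0) in both lists. Tools were Python 3.11.15 with pandas 2.3.3, numpy 2.4.6, matplotlib 3.10.9 and SciPy 1.17.1.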

Additional observations from a re-analysis of the deposited data

How the results depend on the processing

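The 8 counts of Cyp genes with a peak were recomputed under 49 alternatives, of which 39 stayed within 1.5 times the reported count. These 39 include counts of 0 that could not change, because the alternative only removed or shortened peaks or narrowed the window. With 500 bp or 2 kb in place of 1 kb, or with peak midpoints, 2 genes had an induced peak at an end. Under all 7 alternatives run for it, the count of genes with a non-induced peak within 1 kb was 0. Only the window of 2 kb could have raised it, since the others remove or shorten peaks or narrow the window. With 10 kb in place of 5 kb, 9 genes had an induced peak near an end in place of 3, and 2 a non-induced peak in place of 0. Among peaks with a score of at least 100, 1 gene (Cyp1b1) had an induced peak within 1 kb of an end, over all and over lone genes, and 1 within 5 kb; 2 had an induced and 0 a non-induced peak inside. With the joint median of the scores (61.6) as the minimum, these inside counts were 3 and 1. With lists of equal length, 2 genes had a non-induced peak inside. Clusters drawn at 50 kb or 500 kb left 41 and 24 lone genes, with Cyp1b1 and Cyp46a1 marked in each. No paired analysis was possible because each group has 1 list and no test was made. Leaving out a replicate was not possible for the same reason. Unknown depth limits what a missing peak can say: it was not detected at this depth.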

Other observations

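P450 genes without a Cyp symbol and Cyp pseudogenes lay outside the counts. Ptgis, the prostacyclin synthase, had no peak in either list. Tbxas1, the thromboxane synthase, had 0 induced peaks and a non-induced peak within 1 kb of an end (59.31, chr6:39085547-39086003), and 2 inside the gene, the higher with a score of 62.6. Of 35 Cyp pseudogenes and non-coding transcripts none had an induced peak inside or within 5 kb of an end. Of all protein-coding genes 16.5% had one inside and 18.4% within 5 kb of an end. Non-induced peaks lay within 5 kb of an end of 2, Cyp2j7 and Cyp3a61-ps1, and inside 2, Cyp2j7 and Cyp2c53-ps. The shares of all protein-coding genes were 5.36% and 10.2%. Shares over all non-coding genes were not computed, so these counts say nothing particular about the Cyp pseudogenes.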
